A study of Rattus norvegicus with 7 samples.

Results

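Small RNA of the Wistar rat retina was compared between postnatal day 10 (P10) and postnatal day 15 (P15), the neighbouring ages of the series between which young rats open their eyes. The comparison covered every annotated noncoding RNA feature with a locus of at least 50 bases, which gave 5006 of the 5491 features of the whole series. Of these, 493 were annotated as miRNA. The series holds 7 ages from P1 to P21, with P3, P5 and P7 before and P21 after the compared pair, all from untreated Wistar WU animals kept in a 12:12 h light/dark cycle and killed at the same hour. At each age 3 RNA samples from retinas were pooled, so that P10 and P15 were represented by 1 pooled library each. No spread between animals can be calculated, none of the differences has a test, and a difference between the ages cannot be told apart from a difference between the pools. Eye opening itself was not recorded in the labels.

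MiRNAs are short single-stranded RNAs, cut from hairpin precursors, that lower the translation and stability of mRNAs. The bases near their 5′ end, called the seed, pair with the target, so miRNAs of different loci with a shared seed form a family. Many miRNA genes lie side by side in clusters. Late in the first weeks after birth the rat retina is largely past proliferation, the outer segments of the photoreceptors grow, and synapses mature as patterned light reaches the eye. Members of the mir-17 clusters are known for cell proliferation, the mir-29 family for its targets in the extracellular matrix and its high level in mature neurons, mir-204 and mir-211 for the retina and the pigment epithelium, and the mir-183 cluster for sensory cells.

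The mature sequences below belong to the miRNAs to which the results refer most, and the seed (bases 2 to 8 from the 5′ end) is in capitals. They were taken from RefSeq (GRCr8 assembly), which held a sequence for 207 of the 269 miRNA features that could be compared. The first 4 share the seed of the mir-17 family, and miR-18a-5p differs from it inside the seed.
rno-miR-17-5p: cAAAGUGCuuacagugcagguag
rno-miR-20a-5p: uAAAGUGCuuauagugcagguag
rno-miR-93-5p: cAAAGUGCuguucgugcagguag
rno-miR-106b-5p: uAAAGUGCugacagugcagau
rno-miR-18a-5p: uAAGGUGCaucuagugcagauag
rno-miR-32-5p: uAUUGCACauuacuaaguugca
rno-miR-92a-3p: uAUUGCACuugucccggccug
The next sequences are shown because miR-29b-3p belongs by name to 3 compared loci, all higher at P15, and because paralogs with 1 seed differed in size (miR-204-5p and miR-211-5p) or in direction (miR-195-5p and miR-15b-5p).
rno-miR-29b-3p: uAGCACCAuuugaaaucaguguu
rno-miR-204-5p: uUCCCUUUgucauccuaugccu
rno-miR-211-5p: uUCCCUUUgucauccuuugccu
rno-miR-195-5p: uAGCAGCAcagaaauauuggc
rno-miR-15b-5p: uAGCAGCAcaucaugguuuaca

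The deposited level of a feature is its FPKM, a fragment count corrected for feature length and library size. Low FPKM values step in units of 1 aligned read, from which 460182 alignments were estimated at P10 and 448232 at P15. The low values of each library were whole sums of 2 step sizes, with a ratio of 3.53 at P10 and 6.08 at P15, as 2 sets of reads per library, scaled separately, would give. They are called read set A (the smaller step) and read set B here. The pools were sequenced 2 times, but no source ties a read set to a sequencing run. The estimates assume equal signal of both sets, and the features that could be split gave set A 56.6% of the signal at P10 and 49.1% at P15. Without this assumption the total could lie between 199357 and 704137 at P10 and between 127050 and 771923 at P15. Features averaging under 20 estimated alignments over both ages were not compared, which left 1410 features, 269 of them miRNAs. A difference is log2(FPKM + 1) at P15 minus that at P10, its 95% interval covers counting error only, and reads copied from the same molecule by PCR are counted separately.

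The read sets give a measure of error that the counting intervals lack, although it is technical and says nothing of animals. Over 93 miRNA features of moderate level the SD of the log2 difference between set A and set B of the same library was 0.806 at P10 and 0.775 at P15, where counting alone gives 0.334 and 0.352. This spread puts an SE of 0.56 on the P15 minus P10 difference of a single miRNA, so the 95% half-width is 1.10. The sets also differed as a whole, with a median of set A minus set B of 0.46 at P10 and -0.81 at P15, and the SE does not cover this offset. With the sets paired by step size, the P10 to P15 difference had the same sign in both sets in 30 of the 93 features (32.3%). Which set of P10 belongs to which set of P15 is not known. A miRNA was therefore described as higher in both sets only when both values at P15 exceeded both values at P10. The most abundant features cannot be split, and for these no value of the read sets is available.

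At least 2-fold differences, called by size alone, were seen in 48 of the 269 miRNAs (17.8%). Of these, 15 were higher at P15 (5.58%) and 33 were lower (12.3%). A difference of 2-fold is smaller than the half-width of 1.10 from the read sets. Past that half-width, 12 miRNAs were higher (4.46%) and 26 lower (9.67%). The median difference of the miRNAs was -0.18, and the central range from the 5th to the 95th percentile ran from -1.49 to 1.02. Scaling moved this balance. Median-of-ratios scaling shifts all P15 values up by 0.18 and gave 23 miRNAs higher and 23 lower, and TMM scaling, with a shift of 0.19, gave 24 higher and 23 lower. Counts of either direction are therefore read relative to that shift. Of the 185 miRNAs that could be split, 17 were higher in both read sets (9.19%), 47 were lower in both (25.4%) and 121 overlapped. Among all 1410 features, 451 (32%) differed at least 2-fold, 7.09% being higher and 24.9% lower. Where no size is asked, 35.7% of the miRNAs lay above 0 and 64.3% below.

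**Figure D1:**
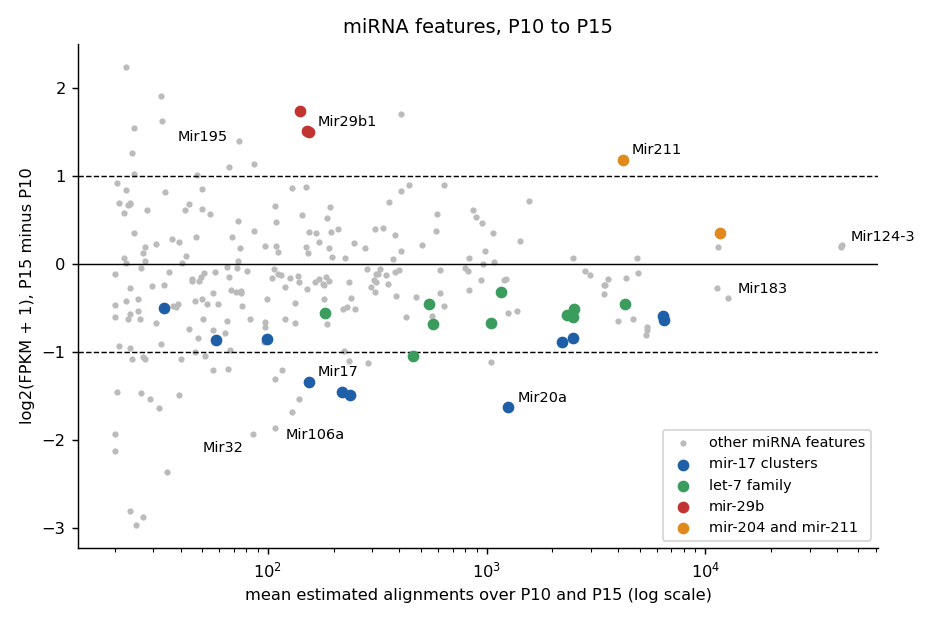
Log2 difference of FPKM (P15 minus P10) of the 269 compared miRNA features against their mean estimated alignments (log axis), 1 point per feature, with 4 families in colour and dashed lines at 2-fold. The 11 features of the mir-17 clusters and the 10 of the let-7 family lie below 0, and the 3 mir-29b loci lie above the upper line.

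In the 269 compared miRNAs the step from P10 to P15 was not the largest of the time course. In the same 269 miRNAs, 38.3% differed at least 2-fold from P7 to P10, 24.5% from P15 to P21 and 19.7% from P1 to P3. The shares were 15.6% from P5 to P7 and 11.5% from P3 to P5. Features lower at the later age outnumbered the higher ones from P3 to P5, from P5 to P7 and from P10 to P15. The 269 were kept by their alignments at P10 and P15 alone. MiRNAs low at both of these ages were left out even where they were high elsewhere, so the steps are not compared on equal terms.

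**Figure D2:**
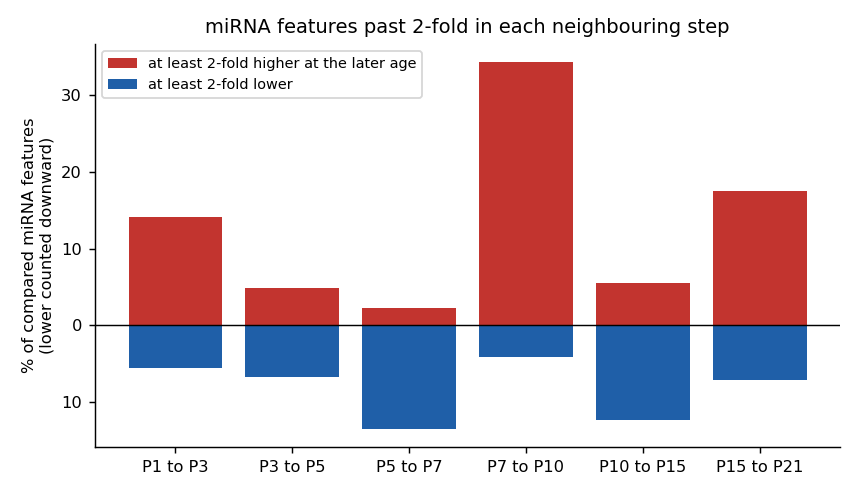
Share of the 269 compared miRNA features (in %) that were at least 2-fold higher (bars above 0) or at least 2-fold lower (bars below 0) at the later age, for the 6 neighbouring steps with 1 library an age. From P10 to P15 the shares were 5.58% higher and 12.3% lower, and from P7 to P10 they were 34.2% higher and 4.09% lower. The features were kept by their alignments at P10 and P15 alone.

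The clearest group with lower levels at P15 was that of the mir-17-92 cluster and its paralogs on chromosomes 12 and X, the cluster family known for promoting proliferation. Of its 13 features 11 could be compared, and all 11 lay below 0 (64.3% of all compared miRNAs did), with a median of -0.87. The direction of the 11 was the same under each of the 3 other scalings, where the median lay between -0.80 and -0.68. Of these, 4 were at least 2-fold lower, where 12.3% of all compared miRNAs were, and none was higher. The other 7 were within 2-fold, and so within the half-width of 1.10. All 6 features that could be split were lower in both read sets, where 25.4% of the split miRNAs were. The other features, Mir20b and Mir92a2, had under 20 alignments.

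Mir20a (Rnor_6.0, chr15:100180334-100180418) had an FPKM of 190173 at P10 and 61549 at P15, a difference of -1.63 (95% counting interval -1.81 to -1.45). It was too abundant to be split. Its neighbour Mir17 (chr15:100179879-100179962) had 21226 at P10 and 8393 at P15. The read sets of Mir17 gave 18615 and 23838 at P10 and 4766 and 12020 at P15, so the ages did not overlap. The same was seen for Mir18a, with 19507 and 10224 at P10 and 5250 and 5369 at P15. Mir19a, Mir19b1 and Mir92a1, the other members of the chromosome 15 cluster, differed by -0.89, -0.64 and -0.85.

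In the paralog cluster on chromosome 12, Mir93 (chr12:19307543-19307629) had an FPKM of 20279 at P10 and 7393 at P15. Its read sets gave 25109 and 15450 at P10 and 5565 and 9221 at P15. Mir106b, the most abundant of this cluster, went from 289846 to 162014 (-0.84, counting interval -0.95 to -0.73) and Mir25 from 8704 to 4772 (-0.87). The chromosome X cluster behaved alike in sign, although Mir363 and Mir19b2 differed by only -0.50 and -0.59. Mir106a (chrX:140117891-140117968), which carries the miR-17-5p sequence in RefSeq and was not in the list, had 13280 at P10 and 3643 at P15. Its read sets were 12305 and 14256 against 3334 and 3953, so the sets of each age lay close together. Reads of loci with near-identical mature sequences may be shared between them, so these features are not independent.

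Among the seeds held by at least 3 compared features, the 5 features with the seed AAAGUGC had the lowest median, -1.46. They are Mir17, Mir20a, Mir93, Mir106a and Mir106b. At least 2-fold lower were 4 of them, where 12.3% of all compared miRNAs were. The 5 features with the seed AUUGCAC, which are Mir25, Mir32, Mir92a1, Mir92b and Mir363, all lay below 0 with a median of -0.87. Mir32 was the lowest of these, with an FPKM of 28179 at P10 and 7373 at P15. Its read sets at P10 were 8215 and 48143, so that its size rested on 1 set, while those of P15 were 7249 and 7497. The features with the mir-19 seed GUGCAAA differed by a median of -0.64.

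**Figure D3:**
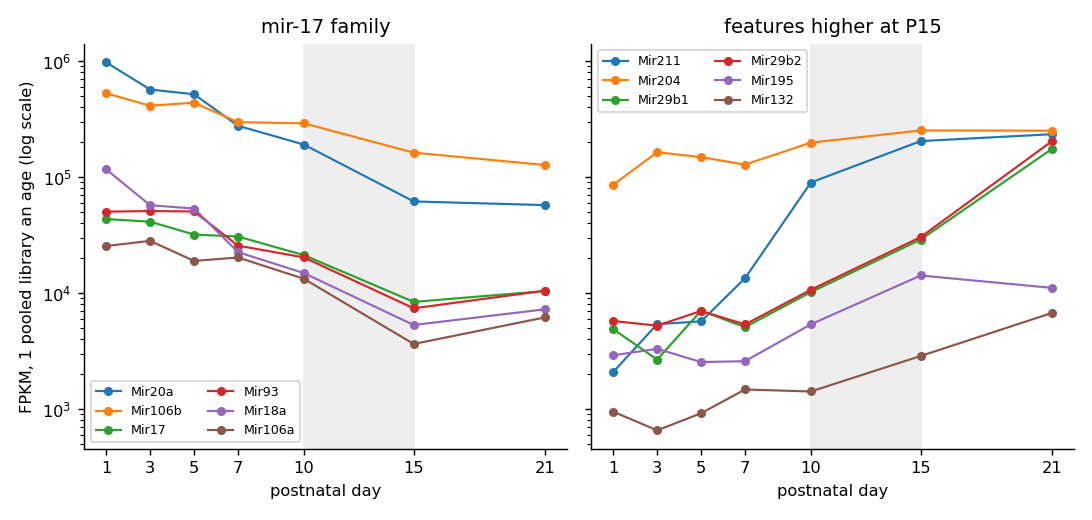
FPKM (log axis) against postnatal day at the 7 ages, 1 pooled library an age without error bars, for 6 features with the mir-17 or mir-18 sequences (left) and 6 features that were higher at P15 (right), with the P10 to P15 step shaded. The 6 mir-17 family features are lower at P15 than at P1, and the mir-29b loci are highest at P21.

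Levels of the mir-17 family were lower at P7 than at P1 already. Mir20a had 970552 FPKM at P1 and 276150 at P7, and Mir18a had 116105 at P1 and 22531 at P7. After P15 the difference did not continue in the same way, since Mir20a stood at 57224 at P21 and Mir17, Mir18a and Mir93 stood between 7253 and 10491, above their P15 values.

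MiRNAs of the mir-15/16 family, which target cell cycle genes, did not move together. Mir15b went from 67152 at P10 to 31032 at P15 (-1.11, counting interval -1.30 to -0.93), and Mir16 from 335586 to 214585 (-0.65). Mir195, which carries the same seed, was higher at P15, with an FPKM of 5380 at P10 and 14168 at P15. Its read sets gave 7200 and 3560 at P10 and 7375 and 20960 at P15, so they were just separated. In the cluster of Mir322, Mir503, Mir351 and Mir542, only 2 of 8 features had enough alignments to be compared. These differed by -1.08 and -0.57, and 64.3% of all compared miRNAs lay below 0.

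All 10 let-7 features, including Mir98, lay below 0 (64.3% of all compared miRNAs did), as they did under the 3 other scalings. Reads may be shared between loci with near-identical mature sequences, so the 10 are not independent. Let-7 is known to time differentiation. The median was -0.57, and the values ran from -1.04 (Mirlet7b) to -0.32 (Mirlet7d). Mirlet7b went from 28638 to 13886 FPKM, and Mirlet7g, the most abundant locus, from 339696 to 248490. All 10 were within the half-width of 1.10, and only Mirlet7b was past 2-fold, as deposited and not after rescaling. Only Mir98 could be split, and its read sets overlapped. Mir125a, Mir125b1, Mir99a, Mir99b and Mir100, which lie in clusters with let-7 genes, had a median of 0.06, with 3 of 5 above 0.

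The mir-29b loci were the clearest group with higher levels at P15. No feature named Mir29a or Mir29c was among those compared. The 3 compared features of the mir-29 family were Mir29b1 on chromosome 4, Mir29b2 on chromosome 13 and a copy named rno-mir-29b-2 on chromosome 1. They were all at least 2-fold higher, where 5.58% of all compared miRNAs were, with a median of 1.51. All 3 were higher in both read sets, where 9.19% of the split miRNAs were. Mir29b1 (chr4:58344310-58344390) had an FPKM of 10189 at P10 and 28916 at P15 (1.50, counting interval 1.06 to 1.96). Its read sets gave 12240 and 8138 at P10 and 18081 and 39751 at P15. Mir29b2 had 10673 and 30344, and rno-mir-29b-2 had 3053 and 10167. By their names the 3 loci encode the same mature miR-29b-3p, so they count as 1 observation of that sequence.

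Mir3556a (chr4:58343919-58344036), next to Mir29b1, was also higher, with an FPKM of 4165 at P10 and 13599 at P15 (1.71). Its mature sequence in RefSeq is complementary to rno-miR-29a-3p over 18 bases.
rno-miR-3556a: cGAUUUCAgauggugcua
The counting is not stated to use strand, and without strand reads of Mir3556a and of the mir-29a gene on the other strand cannot be told apart. Mir3556b and rno-mir-3556b-1, which pair with miR-29c-3p over 20 bases, had 9590 and 14442 FPKM at P10 and 13915 and 22101 at P15. Levels of the mir-29b loci were higher still at P21, with 175781 for Mir29b1 and 205047 for Mir29b2.

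Of the pair of paralogs with the mir-204 seed, Mir211 (chr1:125042119-125042224) was over 2-fold higher at P15 while Mir204 differed less. Mir211 had an FPKM of 89610 at P10 and 203804 at P15 (1.19, counting interval 1.10 to 1.27). It had been at 2090 at P1 and 13414 at P7, and stood at 233594 at P21. Mir204 had 197501 at P10 and 251645 at P15 (0.35). Both are too abundant for a split into read sets, so the error of either difference beyond counting is not known, and the spread of other miRNAs gives a half-width of 1.10. The mature sequences share their seed, and how reads were divided between the loci is not given in the sources used here.

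The 20 features of neuron-enriched and activity-regulated miRNAs were balanced, with 11 above 0 and 9 below and a median of 0.13. Over all compared miRNAs 35.7% lay above 0 and 64.3% below. In this list 2 features were at least 2-fold higher and 2 at least 2-fold lower, where 5.58% and 12.3% of all compared miRNAs were. Median-of-ratios scaling gave 5 and 1, against 23 and 23 of all 269. Mir132, induced by neuronal activity, had an FPKM of 1420 at P10 and 2871 at P15 (1.02, counting interval 0.19 to 1.86). Its read sets gave 2060 and 780 at P10 and 3525 and 2216 at P15. These values did not overlap, but they rest on 31 and 64 alignments. Mir212, transcribed with Mir132, had 1915 at P10 and 1202 at P15, and its read sets overlapped.

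Of the 13 features of this list that could be split, 2 were higher in both read sets, 2 were lower in both and 9 overlapped. Over all 185 split miRNAs 9.19% were higher in both and 25.4% lower in both. Beside Mir132, Mir137 was higher in both, at 5912 and 3565 at P10 and 8159 and 9046 at P15. Mir7a-2 (-0.68) and Mir7b (-0.42) were lower in both. Mir129-1 had 7323 at P10 and 16116 at P15, but its read sets overlapped (10610 and 4036 against 10113 and 22119). Mir135a and Mir135b, by contrast, were lower at P15, by -1.10 and -1.30. Mir135b had read sets of 5953 and 25302 at P10 and 6084 and 6583 at P15, so its lower level came from 1 set of P10. Mir218-2 had an FPKM of 12427 at P10 and 22103 at P15 (0.83). The 3 Mir124 loci, which share the mature sequence of the most abundant neuronal miRNA, were the highest of all features at both ages. They lay at 2830000, 2820000 and 1780000 FPKM at P10 and at 3250000, 3220000 and 2060000 at P15, values given to 3 digits only, which are differences of 0.19 to 0.21.

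**Figure D4:**
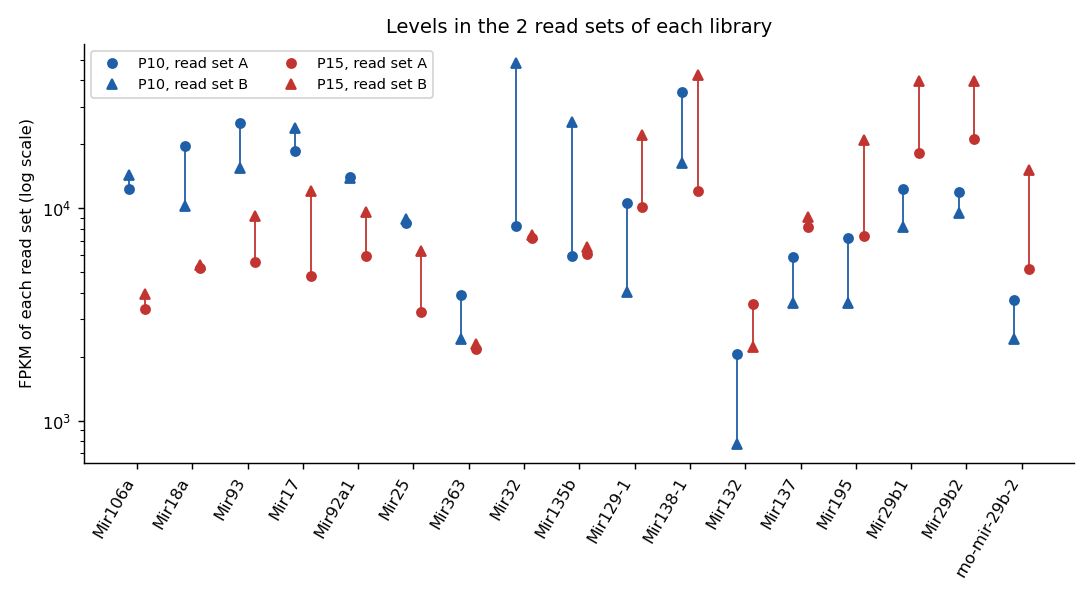
FPKM (log axis) in read set A (circles) and read set B (triangles) of the P10 library (blue) and the P15 library (red) for 17 miRNA features, with a line joining the sets of 1 library. In the mir-17 family both P15 values lie under both P10 values, in the mir-29b loci both lie above, and in Mir135b, Mir129-1 and Mir138-1 the libraries overlap.

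The photoreceptor cluster was lower at P15, within 2-fold. Mir183 (chr4:57463569-57463678) had 733716 FPKM at P10 and 559391 at P15 (-0.39), and Mir96 had 281916 and 182431 (-0.63). Both had been far lower at P1, at 103203 and 14260. Mir182 was not analysed here. All 6 mir-30 features were within 2-fold, from -0.34 to 0.19, and so were the 3 features of mir-26 and mir-101. The 5 mir-181 features, known from the inner retina, all lay below 0 (64.3% of all compared miRNAs did) with a median of -0.47. Mir181d (3304 and 1562 FPKM) was at least 2-fold lower as deposited but not under median-of-ratios or TMM scaling.

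MiRNAs that mark other cell types were also examined. The vascular miRNAs Mir126a, Mir143 and Mir145, of endothelial and mural cells, all lay above 0 with a median of 0.72. Over all compared miRNAs 35.7% lay above 0. Mir126a went from 24362 to 40166 FPKM and Mir145 from 41643 to 77456. The 5 compared features of Mir23, Mir24 and Mir27, shared by vessels and Müller glia, had a median of 0.37, and the read sets of the 4 that could be split overlapped. Of 6 blood miRNAs 3 could be compared, and Mir142, of white blood cells, was lower (2946 and 950 FPKM, both sets lower), while Mir451a, of red cells, had 9890 and 6432 with overlapping sets. The third, Mir150 of lymphocytes, had 1623 and 2609, also with overlapping sets. Mir219-1, an oligodendrocyte miRNA, had 11758 and 4064 and was lower in both sets. The muscle miRNA Mir499 had 9804 and 9191, and the lens and cornea miRNAs Mir184 and Mir205 had under 20 alignments. In a whole retina fewer cells of a type and less RNA per cell cannot be told apart, and the part of these cell types in other results was not tested.

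Single features with the largest differences had few alignments. Among the largest positive differences were Mir3584 (2.24, 15 and 30 alignments at P10 and P15), Mir365b (1.91, 17 and 48) and Mir344a-2 (1.26, 13 and 35). Mir3584 and Mir365b were higher in both read sets and Mir344a-2 was not. One of the 15 higher features, Snora58, is annotated as a miRNA under the symbol of a small nucleolar RNA. The lowest features were AABR07031182.1 (-2.97, 45 and 5 alignments), Mir6327 (-2.87, 50 and 4) and AABR07062920.1 (-2.81, 39 and 8). Mir1247 went from 5984 to 1164 FPKM and Mir216b from 1266 to 290. All of these were lower in both read sets. Mir6327 stood at 25042 at P21, far above both ages. The features nearest to the 2-fold limit were Mir132 (1.02) and AABR07009786.1 (1.03) among those higher and Mir130a (-1.04) and Mirlet7b (-1.04) among those lower, with rno-mir-190a-1 (-0.998) and AABR07071431.1 (-0.991) just outside it.

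The levels at P21, from a library that the call did not use, lay on the same side of P10 for most of these miRNAs. Of the 15 that were at least 2-fold higher at P15, 15 were above P10 at P21 and 13 were above P15. Of the 33 that were lower, 31 were below P10 at P21, but 24 of these 33 were above P15. As both statements share the P10 value, they give no independent support. The shares of all 269 miRNAs above P10 or above P15 at P21 were not calculated, so these counts have no background. From P15 to P21, 17.5% of the 269 were at least 2-fold higher and 7.06% at least 2-fold lower.

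Among the other RNA classes, small nucleolar RNAs (snoRNAs) had the largest log2 ratio of shares of the alignments. SnoRNAs guide chemical modification of ribosomal and spliceosomal RNA, the box C/D type (SNORD) directing methylation and the longer box H/ACA type (SNORA) directing pseudouridylation. Their share of the estimated alignments was 9.68% at P10 (exact binomial 95% interval 9.594% to 9.765%) and 4.05% at P15 (3.997% to 4.112%), a log2 ratio of -1.26 with an SE of 0.56 from the read sets. Of 192 compared snoRNA features 102 were at least 2-fold lower and 13 at least 2-fold higher, where 24.9% and 7.09% of all features were. MiRNAs held 69.5% of the alignments at P10 and 74.0% at P15, a log2 ratio of 0.09 with an SE of 0.32. The SEs of class shares, here and below, rest only on features that could be split. They leave out the most abundant features, which hold much of a share.

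The types of snoRNA went apart. Of 138 SNORD features 90 were at least 2-fold lower and 2 higher, with a median of -1.27. Of 119 that could be split, 64 were lower in both read sets and 1 was higher in both, where 32.7% and 11.2% of all 1182 split features were. Summed over the SNORD features of low level, 167 in number, the read sets had 915640 and 570900 FPKM at P10 and 251440 and 445880 at P15, so the ages did not overlap. The same sums over 371 miRNA features of low level did overlap, at 1113900 and 1019200 against 723950 and 1061200. Of 39 SNORA features 11 were at least 2-fold higher and 4 lower, where 7.09% and 24.9% of all features were, with a median of 0.49. Of 38 that could be split, 11 were higher in both read sets, 4 were lower in both and 23 overlapped. Summed over 130 SNORA features of low level, the ages overlapped, at 78924 and 51089 against 86000 and 68677. Under TMM scaling the medians of SNORD and SNORA were -1.08 and 0.68. Length and type go together here, since snoRNA features under 100 bases had a median of -1.39 (129 features) and those of 100 bases or more of -0.09 (63 features). The part of the size selection of the libraries was not tested.

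SNORD18 on chromosome 8 had the lowest difference of all features (-5.01), with an FPKM of 21319 at P10 and 659 at P15. Its read sets at P10 were 1440 and 41198, so nearly all of its P10 level came from 1 set, and it had 662 at P7. An imprinted SNORD113 copy on chromosome 6 was next, at -4.27 (13328 and 692 FPKM), and in it the large P10 value came from the other set, with 24846 against 1809. Most SNORD113 copies differed far less, since the 22 compared copies had a median of -0.20, with 15 within 2-fold and 5 above 0. All 4 compared SNORD115 copies, neuron-specific snoRNAs of an imprinted locus, were at least 2-fold lower and lower in both read sets. They had between 5490 and 7656 FPKM at P10 and between 1176 and 2306 at P15. Of 6 compared copies of SNORD116, from the same imprinted region, 4 were at least 2-fold lower and 1 at least 2-fold higher, and none was lower in both sets. Over all SNORD features 90 of 138 were at least 2-fold lower, and 64 of the 119 split were lower in both sets. How reads were divided between copies is not given, so copies of 1 name may not be independent.

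Among SNORA features, SNORA43 had the largest difference (4.22), with 125 FPKM at P10 and 2352 at P15, on 3 and 63 alignments. One SNORA42 feature had 480 and 2661, and it was higher in both read sets (821 and 138 against 3554 and 1767). A second SNORA42 feature (1399 and 3157) and SNORA68 (1068 and 2961) were likewise higher in both sets. Features of 1 name could differ in direction. Of the 2 compared SNORA24 features, 1 had 1012 at P10 and 3002 at P15 and was higher in both sets, and the other had 1437 and 585 with overlapping sets. Of the 2 SNORA62 features, 1 had 1248 and 139 and was lower in both sets, and the other had 337 and 557 with overlapping sets.

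**Figure D5:**
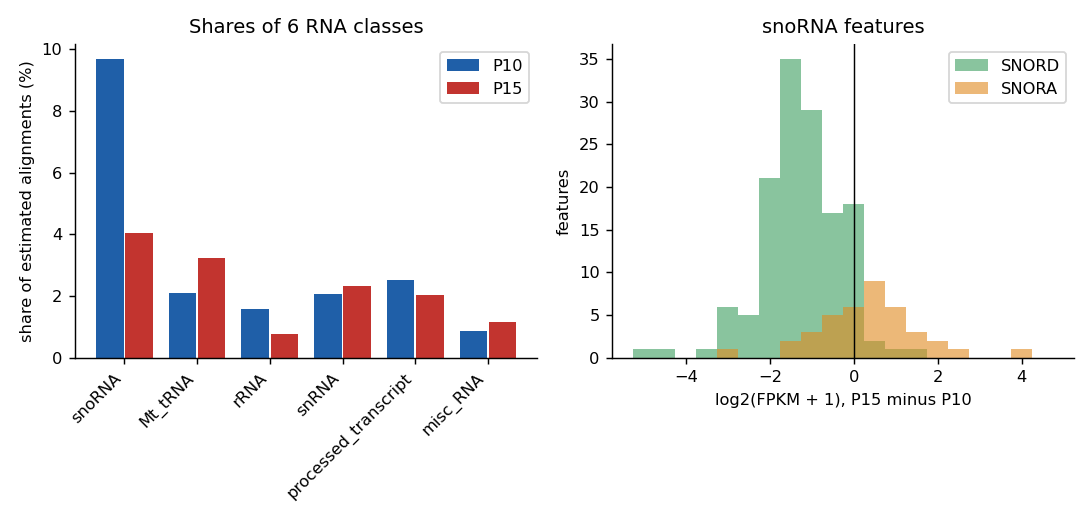
Share of estimated alignments (in %) of 6 RNA classes in the P10 and P15 libraries (left, 1 library an age) and numbers of SNORD and SNORA features by log2 difference of FPKM in bins of 0.5 (right). The snoRNA share is 9.68% at P10 and 4.05% at P15, and the SNORD features centre below 0 while the SNORA features centre above it.

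Ribosomal RNA fragments were lower at P15 and mitochondrial RNA was higher. All 31 compared rRNA features lay below 0 and 20 were at least 2-fold lower, where over all features 64.3% lay below 0 and 24.9% were 2-fold lower. The median was -1.26, and the share of the class was 1.58% at P10 and 0.768% at P15 (log2 ratio -1.04, SE 0.63 from the read sets). Both 5S and 5.8S copies took part, with medians of -1.30 and -0.97. Of 15 split 5S features 4 were lower in both read sets and 11 overlapped. Of 12 split 5.8S features 8 were lower in both, where 32.7% of all split features were. Summed over features of low level, the 5S read sets overlapped (111250 and 43368 against 43950 and 22120) and those of 5.8S did not. How reads were divided between copies is not given, so these counts may not be independent. Of the 22 mitochondrial tRNAs 18 lay above 0 and 8 were at least 2-fold higher, none lower, with a median of 0.65. Over all features 35.7% lay above 0 and 7.09% were at least 2-fold higher. Their share was 2.09% at P10 and 3.22% at P15 (log2 ratio 0.62, SE 0.16). Only 6 of the 22 could be split at both ages, of which 4 were higher in both sets. The SE leaves out the more abundant of the 22, so it does not measure the error of the whole class share. The largest difference was that of AY172581.1 (mitochondrial genome, positions 7693 to 7756), with 8735 FPKM at P10 and 33896 at P15, and its sets were 10462 and 7008 against 44254 and 23538. The mitochondrial rRNA features AY172581.24 and AY172581.9 had 1559 and 468 FPKM at P10 and 2244 and 1244 at P15.

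The spliceosomal snRNAs differed by type. Of 27 U1 features 22 lay above 0 (35.7% of all features did), with a median of 0.81. By contrast 21 of 22 U2 features and 9 of 9 U5 features lay below 0, where 64.3% of all features did. Their medians were -0.96 and -1.34. Of the 8 U1 features that could be split none was higher in both sets and 3 were lower in both. Of 22 split U2 features 6 were lower in both sets, and of 9 split U5 features 4 were. Over all features 32.7% of those split were lower in both, and the other U2 and U5 features overlapped. Copies of a snRNA gene have near-identical sequences and share reads, so these counts are not independent. The 11 Y RNA features had a median of 0.55, and the most abundant went from 46006 to 53913 FPKM. The 19 compared 7SK copies, which derive from the RNA that restrains transcription elongation, had a median of -0.05, and 3 were at least 2-fold higher and 3 lower.

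Of 618 lincRNA features, the most numerous class of long noncoding RNA, 44 were at least 2-fold higher and 117 lower, with a median of -0.19, which rescaling brought to -0.01 under TMM. Over all features 7.09% were higher and 24.9% lower, and the lincRNA share higher was near the former. The read sets of lincRNA differed more than those of miRNA, and the SE of a single difference was 0.84. The largest positive difference was that of AABR07045427.1 on chromosome 20 (196 FPKM at P10, 2230 at P15), higher in both sets (286 and 106 against 2723 and 1738). Rn50_20_0026.4 had 359 and 1789 FPKM, with sets of 431 and 3146 at P15. The lowest were AABR07039206.1 (713 and 62 FPKM) and AABR07012023.1 (3293 and 297), both lower in both sets. Of 140 processed transcript features 104 lay below 0, 43 were at least 2-fold lower and 8 higher, with a median of -0.66 (-0.47 under TMM). Of 16 antisense features 15 lay below 0, and 13 under TMM, where 64.3% of all features lay below 0 as deposited.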

How the data were processed

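RNA from 3 retina samples was pooled per age and sequenced 2 times on the Ion Torrent PGM. The authors mapped the reads to Ensembl noncoding RNAs with Torrent Suite and computed the deposited FPKM with Cufflinks, Cuffmerge and Cuffdiff (2.2.1.3 and Rnor_6.0 per the submitters' processing notes), for 21 pairs of ages. Each feature had 1 FPKM per age in all pairs. The fold changes and p-values in the authors' comparison columns were not used. The members and lists were chosen with earlier results of these data known.

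Samples were grouped by the age in the labels. Features of under 50 bases (485), whose FPKM of 1 alignment rises steeply, were left out; they held 50.9% of the summed FPKM at P10 and 39.1% at P15. At P1, 99.1% of 4661 values under 200 alignments were whole multiples (tolerance 0.01) of a unit set by feature length. At P10, 99.3% of 4269 low values, and at P15 99.2% of 4435, were whole sums of 2 steps (absolute tolerance 0.0003, in alignments of P1). The split into read sets was tested on simulated data. Counting intervals are exact binomial, at 95%. FPKM + 1 was used on the log2 scale.

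The features named were those of 18 lists, the 10 miRNAs with the highest mean level, the 10 largest rises and falls that kept their sign under every scaling, and the 5 largest rises and falls of other classes. Others were chosen after their values were seen. Alternatives were 3 scalings, pseudocounts of 0.1 and 10, filters on alignments and length, summed loci, and, added after seeing the data, the read sets. Mir-9 is not reported here. Python 3.11.15 with numpy 2.4.6, pandas 2.3.3, scipy 1.17.1 and matplotlib 3.10.9 was used.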

Additional observations from a re-analysis of the deposited data

How the results depend on the processing

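No paired analysis was possible because each age had 1 library. For the same reason no library could be left out. Counting depth limits single features, since 20 alignments at an age give a wide interval, and the spread between read sets exceeds it. The miRNA median of -0.18 was 0 under median-of-ratios scaling, by construction, and 0.0032 under TMM, where Mir101a turned from -0.16 to 0.03 (0.0275 and 0.0307). Of the 15 miRNAs at least 2-fold higher there were 23 and 24 under these scalings, 58 with no filter, 5 with a mean of at least 100 alignments and 9 among those separated in both read sets. Of the 33 lower there were 117 with no filter, 14 at 100 alignments and 61 with no length minimum. Of the 100 features of all classes that were higher there were 936 with no filter, 22 at 100 alignments, 159 with no length minimum and 64 separated in both read sets, and of those lower (24.9% of 1410) there were 1245 with no filter and 90 at 100 alignments. With shares of summed FPKM and no length minimum, the log2 ratios of class shares were 1.08 for mitochondrial tRNA, -0.12 for lincRNA (reversed from 0.08), -0.63 for processed transcripts, -0.33 for snRNA (reversed from 0.17) and -0.65 for snoRNA. With the length minimum the share of summed FPKM gave -0.17 for processed transcripts, against -0.31. Apart from the effect of how many features were kept or how P15 was scaled, the cause was not tested. Pseudocounts of 0.1 and 10 and summing of loci kept the miRNA counts within 1.5 times.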

Other observations

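Mir30c1 and Mir30c2, neither of which differed 2-fold between P10 and P15, stood apart at the neighbouring ages. Mir30c1 had 290932 FPKM at P10 and 271521 at P15, but 8510 at P7 and 16709 at P21, and it had 286049 at P1. Mir30c2 had 330539 and 347172 at P10 and P15, 7271 at P7 and 18663 at P21. The other mir-30 loci varied less, with Mir30d between 485376 at P7 and 666469 at P10 and Mir30a between 152540 at P7 and 299374 at P10.

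Some miRNAs that were close in level at P10 and P15 were at least 2-fold higher at P21. Mir99a had 47209, 54956 and 309489 FPKM at P10, P15 and P21, and Mir138-1 had 25752, 27044 and 104031.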
